A study of Mus musculus with 6 samples.

Results

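The 10 genes described here, of 15960 in the expression table, were chosen by name for their place in the glucocorticoid response of the liver, and selected on earlier knockout and wild type FPKM values of the same libraries. They are Fkbp5, Tsc22d3, Sgk1, Dusp1, Zbtb16, Klf9, Per1 and Tat, which the glucocorticoid receptor can induce, Serpina6, the carrier of the hormone in blood, and Hsd11b1, its activating enzyme. Because the genotype difference was in view when they were picked, their levels and differences are a description and carry no test. The libraries came from livers of C57BL/6 mice of 22 weeks, 3 with the genotype Cyp2e1-/- (knockout) and 3 with Cyp2e1+/+ (wild type). Both genotypes had eaten a high-fat diet for 14 weeks, so there was no group on another diet, and the labels do not say whether a library stands for 1 animal. The labels state neither the sex of the mice nor the time of day at which liver was taken. The deleted enzyme, CYP2E1, metabolizes ethanol and other small molecules in hepatocytes.

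Corticosterone, the main glucocorticoid of mice, leaves the adrenal gland and travels bound to the globulin that Serpina6 encodes. In hepatocytes Hsd11b1 regenerates it from its inactive keto form, and the hormone then binds the glucocorticoid receptor, the product of Nr3c1, which waits in the cytosol with the HSP90 chaperone and its co-chaperones. The bound receptor enters the nucleus and switches on genes of fuel supply, such as the amino acid enzyme Tat, together with genes that restrain signalling. Among these Fkbp5 encodes an HSP90 co-chaperone that lowers the receptor's affinity for hormone and so closes a feedback loop. Several of the targets also answer to other inputs, including cyclic AMP, growth factors and the circadian clock.

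Promoter windows from RefSeq (GRCm38.p6, 300 bases around an annotated start) were found for 8 of the 10 genes, in 16 windows. Of the windows that hold an element searched, 3 are shown as examples. Windows of Per1 and Tsc22d3 and other windows of Sgk1 also hold one and are not shown. The 4 motifs were looked for on both strands: the full glucocorticoid element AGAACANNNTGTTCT, its hexamer AGAACA, the E-box CACGTG that clock factors bind, and the cyclic AMP element TGACGTCA. The full element contains the hexamer on each strand. Capitals mark every match, and positions count from the start site. Fkbp5 is shown at chr17:28486100-28486399 (minus strand), Sgk1 at the fifth of its 6 listed starts, chr10:21993640-21993939 (plus strand), and Dusp1 at chr17:26508423-26508722 (minus strand).
Fkbp5: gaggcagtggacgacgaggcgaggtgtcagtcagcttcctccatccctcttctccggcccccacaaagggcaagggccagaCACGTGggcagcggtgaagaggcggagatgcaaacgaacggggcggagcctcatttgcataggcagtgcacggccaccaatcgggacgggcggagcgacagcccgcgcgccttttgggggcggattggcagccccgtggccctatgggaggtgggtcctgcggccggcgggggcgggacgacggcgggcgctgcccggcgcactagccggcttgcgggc
Sgk1: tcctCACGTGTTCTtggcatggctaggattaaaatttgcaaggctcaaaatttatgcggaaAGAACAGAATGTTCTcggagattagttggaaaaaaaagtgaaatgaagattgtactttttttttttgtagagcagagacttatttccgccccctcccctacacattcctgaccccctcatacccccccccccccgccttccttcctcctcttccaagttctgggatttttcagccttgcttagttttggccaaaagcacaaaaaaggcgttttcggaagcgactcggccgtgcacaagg
Dusp1: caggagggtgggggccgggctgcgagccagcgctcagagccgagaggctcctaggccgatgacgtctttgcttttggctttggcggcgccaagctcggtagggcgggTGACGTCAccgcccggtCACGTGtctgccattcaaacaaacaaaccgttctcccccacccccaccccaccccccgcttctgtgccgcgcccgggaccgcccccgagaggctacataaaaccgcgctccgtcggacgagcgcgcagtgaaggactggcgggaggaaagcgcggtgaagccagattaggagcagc

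The Sgk1 window held a full glucocorticoid element at -189 (chr10:21993701-21993715), which 3 of 32851 windows of this length in the whole annotation held (0.00913%). It also held an E-box at -246 that shares 2 bases with a hexamer at -242. In the Fkbp5 window an E-box stood at -169, and in the Dusp1 window a cyclic AMP element at -143 and an E-box at -126. The hexamer was in windows of 2 of the 8 genes, Sgk1 and Tsc22d3, and in those of 21.3% of 27025 genes. An E-box was in windows of 4 of the 8, Dusp1, Fkbp5, Per1 and Sgk1, and in those of 8.09% of all genes. The cyclic AMP element was found for Dusp1 alone among the 8, and for 2.03% of all genes. Genes differ in their number of windows, and Sgk1 alone had 6 of the 16, so shares by gene are not like for like. By window, the hexamer was in 4 of 16 and in 19.0% of all 32851. The E-box was in 4 of 16 windows and in 7.15% of all. These are matches of letters within the window, and many receptor sites lie outside it.

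The values are FPKM, fragment counts scaled to transcript length and library depth, so levels of different genes can be set beside each other. Library sums ran from 562590 to 624264 FPKM, and 9628 to 9963 genes per library reached 1 FPKM. Low values of short transcripts fell on steps that put the depth near 10700000 fragments in knockout replicate 1 and between 8190000 and 8790000 in the other 5 libraries, an estimate that takes transcripts at full length. Knockout replicate 1 stood apart: its 10 most abundant genes took 37.7% of the sum against 32.5% to 33.5% elsewhere, and it was the lowest knockout library for 57.6% of the 9968 tested genes. The targeted gene Cyp2e1 stood at 247 to 271 FPKM in knockout liver and at 5942 to 7427 in wild type. Liver identity was clear, with albumin (Alb) at 24938 to 33779 FPKM in every library, while the adipose markers Adipoq and Cfd summed to at most 0.19. Plin1, Lep and Retn, the other adipose markers, have no row in the table. Across all 9968 tested genes, 990 had an unadjusted p under 0.05 (limma).

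Averaged over all 6 libraries, Tat (435 FPKM, rank 140 in the table) and Hsd11b1 (393 FPKM, rank 152) were the most abundant of the 10. Their order differed between libraries, Hsd11b1 being above Tat in the wild type and in knockout replicate 1 and below it in knockout replicates 2 and 3. Serpina6 followed at 150 FPKM, Tsc22d3 at 54.2 and Fkbp5 at 32.8. Klf9 (15.1 FPKM) and Dusp1 (14.6 FPKM) came next, and their library ranges overlapped. Sgk1 (5.37 FPKM), Per1 (5.11 FPKM) and Zbtb16 (4.92 FPKM) were lowest and could not be ordered, as the values of each covered those of the others in part. All 10 passed the filter on low values. The lowest single value, Zbtb16 in wild type replicate 1, stood for about 52 fragments by that estimate, which gives a counting error near 13.9%, and the counting errors of the lowest values of the other 9 genes were 1.37% to 11.5%.

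Of the 10 genes, 2 (Fkbp5 and Serpina6) separated the genotypes without overlap. Groups that do not overlap occurred in 15.4% of all tested genes, and since the genes were picked with this contrast known the count says nothing about them as a set. The median log2 difference of the 10, knockout minus wild type on log2(FPKM + 1), was 0.39, beside -0.03 over all tested genes, and 9 of 10 were positive. Their path through the libraries was not shared. Fkbp5 was highest in knockout replicate 1, whereas the other 9 genes, Serpina6 and Hsd11b1 among them, were at their knockout minimum there. Of all tested genes 57.6% were at their knockout minimum in that library.

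**Figure D1:**
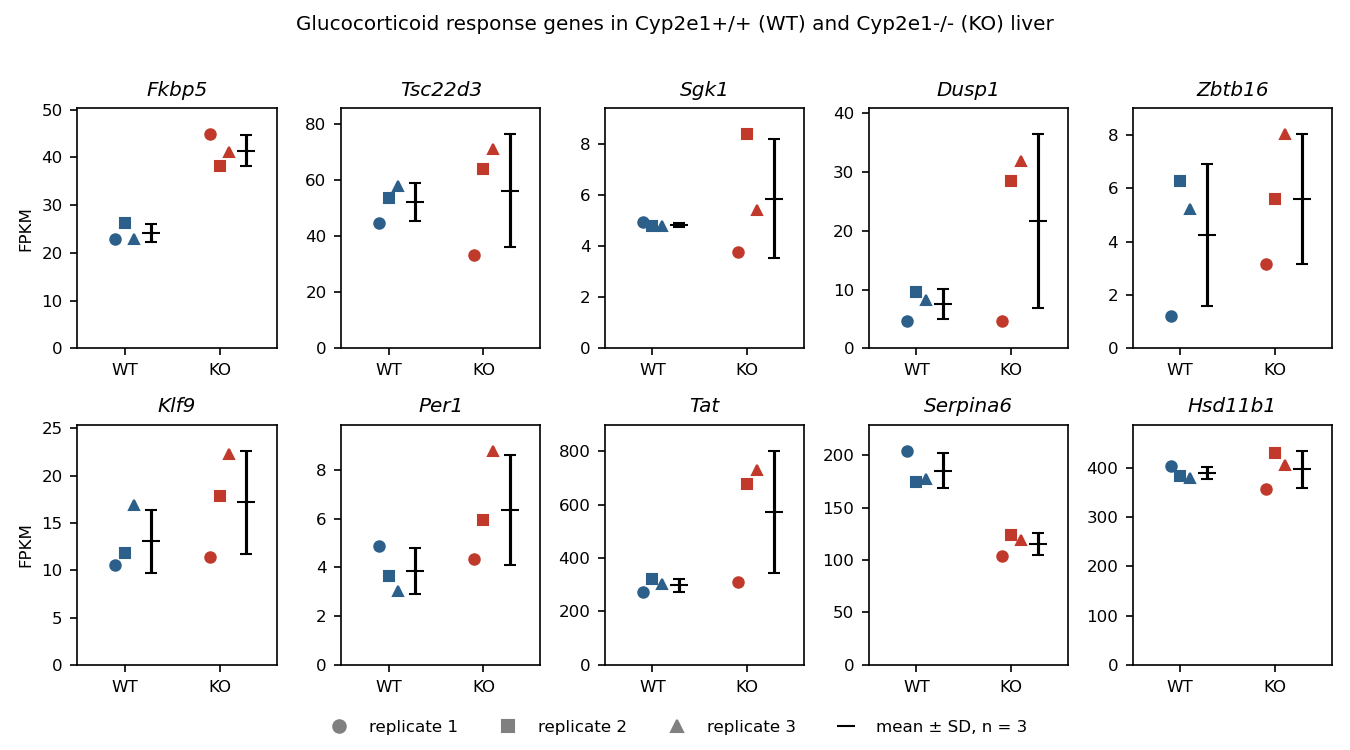
FPKM of the 10 genes in wild type (WT, blue) and knockout (KO, red) liver, 1 panel per gene with its own axis from 0; symbols are libraries by replicate number and black bars are mean ± SD (n = 3). Only Fkbp5 and Serpina6 have no overlap between genotypes, and Dusp1 and Tat show knockout replicate 1 among the wild type libraries.

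Fkbp5 (gene 14229, chromosome 17, 28398753 to 28486149, minus strand, GRCm38) read 44.9, 38.3 and 41.1 FPKM in knockout replicates 1, 2 and 3 and 23.0, 26.3 and 23.0 in wild type. The 3 knockout values lay above all wild type values, and neither genotype spread by more than 1.17-fold from lowest to highest. The means were 41.4 ± 3.30 and 24.1 ± 1.92 FPKM (SD, n = 3 each), a 1.72-fold level in the knockout and a log2 difference of 0.76 (SE 0.12). Within the replicate numbers the log2 difference was 0.93, 0.52 and 0.81. It was 0.67 without replicate 1 of both genotypes, and 0.70 to 0.82 when any single library was left out. Knockout replicate 1, which had the highest Fkbp5, was the library in which most of the other targets were low. No gene with a row in the table overlaps Fkbp5 in the RefSeq annotation.

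Tsc22d3 encodes GILZ, a leucine zipper protein that mediates part of the anti-inflammatory action of glucocorticoids (gene 14605, chromosome X, 140539528 to 140600522). It read 33.3, 64.1 and 71.3 FPKM in the 3 knockout libraries and 44.7, 53.8 and 58.0 in wild type. Knockout replicate 1 was the lowest library of all and knockout replicates 2 and 3 the highest, so the groups overlapped across their whole range. The log2 difference was 0.04 (SE 0.25), became 0.38 without knockout replicate 1 and -0.16 without knockout replicate 3. Tsc22d3 and Fkbp5, both standard readouts of receptor activity, differed in which libraries were high.

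Sgk1, a kinase that acts on ion channels and transporters (gene 20393, chromosome 10, 21882184 to 21999903), read 3.79, 8.40 and 5.44 FPKM in knockout liver and 4.95, 4.81 and 4.80 in wild type. The wild type libraries agreed within 1.03-fold, while the knockout libraries spanned 2.22-fold and lay on both sides of them. The log2 difference of 0.18 (SE 0.22) turned to -0.08 without knockout replicate 2 and was 0.41 without knockout replicate 1. Sgk1, whose promoter window with the full element is printed above, was among the 8 genes with overlapping genotypes.

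Dusp1 encodes a phosphatase that inactivates MAP kinases (gene 19252, chromosome 17, 26505591 to 26508472) and had the widest fold range of the 10 in the knockout. It read 4.68, 28.5 and 31.8 FPKM in the knockout libraries and 4.68, 9.60 and 8.26 in wild type. Replicate 1 held the same value in both genotypes, and only knockout replicates 2 and 3 lay above all wild type libraries. The highest knockout library stood 6.80-fold above the lowest, against 2.05-fold in wild type. The log2 difference was 1.10 (SE 0.56), 1.92 without knockout replicate 1 and 0.65 without knockout replicate 3. The mean of knockout replicates 2 and 3, 30.2 FPKM, was 4.01-fold the wild type mean.

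Zbtb16 encodes PLZF, a zinc-finger repressor that glucocorticoids induce in many tissues (gene 235320, chromosome 9, 48651797 to 48836225). It read 3.17, 5.59 and 8.02 FPKM in knockout liver and 1.23, 6.26 and 5.23 in wild type. Replicate 1 was the lowest library of each genotype, and the wild type alone spanned 5.09-fold. The log2 difference of 0.43 (SE 0.42) was -0.10 without wild type replicate 1, 0.73 without knockout replicate 1 and 0.17 without knockout replicate 3.

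Klf9, a Krüppel-like factor that is a direct receptor target (gene 16601, chromosome 19, 23141226 to 23168129), read 11.4, 17.9 and 22.3 FPKM in knockout liver and 10.5, 11.8 and 16.9 in wild type. Replicate 1 was again lowest in each genotype, and the knockout was the higher member of each numbered pair, by 0.11, 0.56 and 0.38 on the log2 scale. The log2 difference was 0.35 (SE 0.24), with overlapping groups, and became 0.60 without knockout replicate 1 and 0.15 without knockout replicate 3.

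Per1, a core repressor of the circadian clock that glucocorticoids induce directly (gene 18626, chromosome 11, 69095108 to 69109965), read 4.35, 5.93 and 8.79 FPKM in knockout liver and 4.88, 3.65 and 3.05 in wild type. Knockout replicates 2 and 3 lay above every wild type library and knockout replicate 1 did not. The log2 difference was 0.57 (SE 0.23), and 0.78 without knockout replicate 1 and 0.34 without knockout replicate 3.

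Tat, the tyrosine aminotransferase of amino acid breakdown and a classical glucocorticoid-induced enzyme (gene 234724, chromosome 8, 109986078 to 109999804), read 310, 679 and 729 FPKM in knockout liver and 272, 320 and 302 in wild type. The wild type libraries and knockout replicate 1 formed 1 narrow range, and knockout replicates 2 and 3 stood apart above it. Their mean of 704 FPKM was 2.36-fold the wild type mean of 298 ± 24.1 (SD, n = 3), while knockout replicate 1 was at 1.04-fold. Over all libraries the knockout mean was 573 ± 229 FPKM (SD, n = 3), with a log2 difference of 0.85 (SE 0.28) that was 1.24 without knockout replicate 1 and 0.62 without knockout replicate 3.

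**Figure D2:**
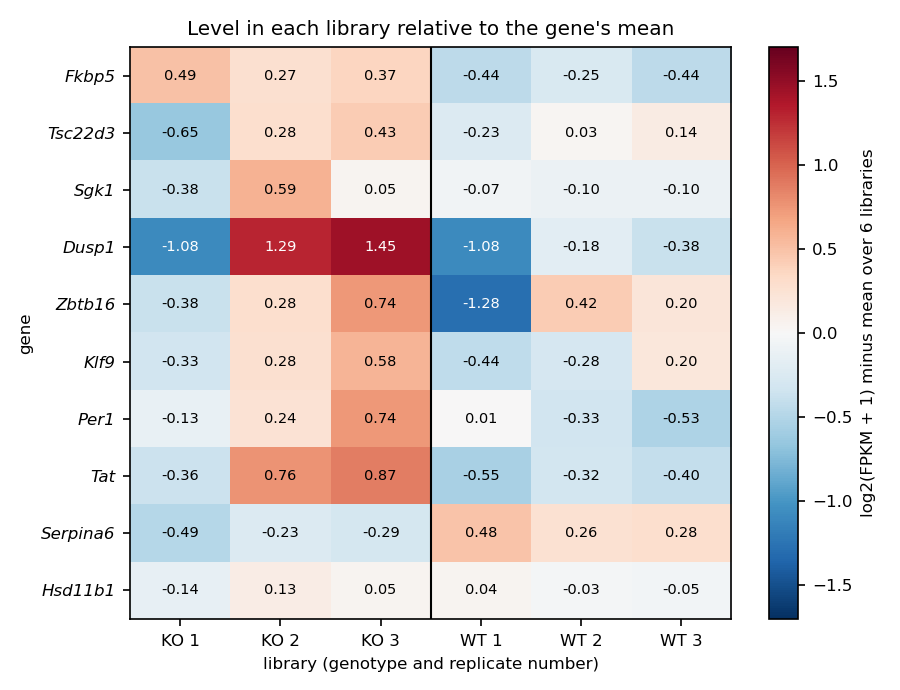
Level of each gene (rows) in each library (columns, KO knockout and WT wild type with replicate number) as log2(FPKM + 1) minus the gene's mean over the 6 libraries, printed in each cell and coloured from low (blue) to high (red). Dusp1 runs from -1.08 in replicate 1 of both genotypes to 1.45 in knockout replicate 3, while Fkbp5 is above its mean in all knockout libraries.

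Serpina6, which encodes corticosteroid-binding globulin (gene 12401, chromosome 12, 103646630 to 103657218), read 103, 124 and 119 FPKM in knockout liver and 204, 174 and 177 in wild type. All knockout values were below all wild type values. The means were 115 ± 10.6 and 185 ± 16.5 FPKM (SD, n = 3 each), so that the knockout held 0.622 of the wild type level, a log2 difference of -0.68 (SE 0.12). The difference was -0.97, -0.49 and -0.57 within replicate numbers 1, 2 and 3. It was -0.53 without replicate 1 of both genotypes. As RNA from whole liver was measured, fewer cells of a type and less RNA per cell cannot be told apart for this or any other gene here.

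Hsd11b1, the reductase that regenerates active hormone (gene 15483, chromosome 1, 193221640 to 193264045), read 356, 429 and 406 FPKM in knockout liver and 404, 384 and 380 in wild type. The groups overlapped, and neither spread by more than 1.21-fold. The means of 397 ± 37.5 and 389 ± 13.0 FPKM (SD, n = 3 each) gave a log2 difference of 0.02 (SE 0.12). The largest difference under any setting was 0.13, without replicate 1 of both genotypes.

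Within the replicate numbers, Fkbp5, Klf9 and Tat were higher in the knockout in all 3 numbered pairs, and Serpina6 was lower in all 3. Replicates 2 and 3 showed the knockout higher for 8 of the 10 genes, Serpina6 and Zbtb16 being the exceptions. With knockout replicates 2 and 3 against the 3 wild type libraries the median difference of the 10 was 0.65 (all tested genes, 0.02). With knockout replicate 1 against them it was -0.16 (all tested genes, -0.11).

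**Figure D3:**
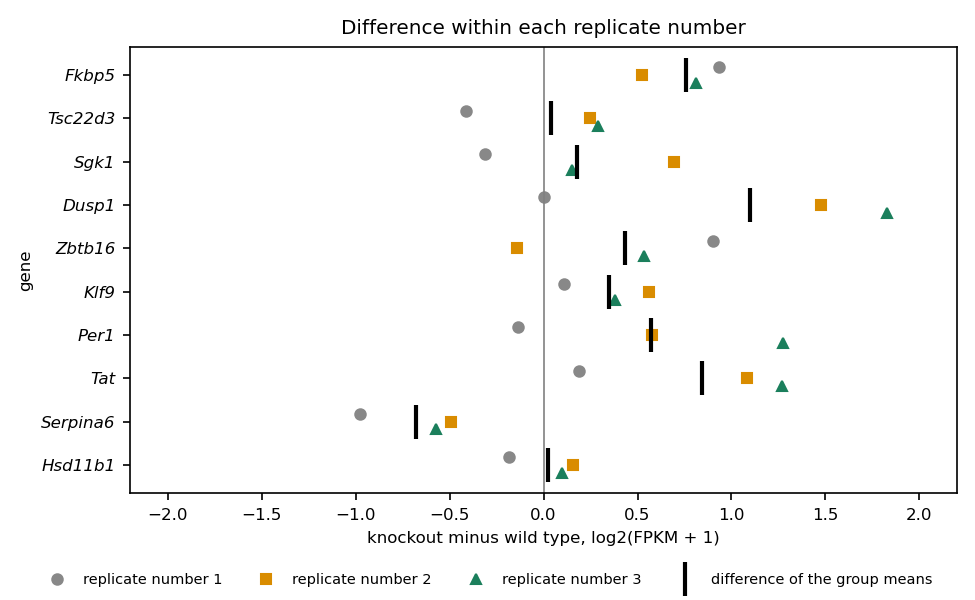
Knockout minus wild type on log2(FPKM + 1) for each gene within replicate numbers 1, 2 and 3 (symbols), with the difference of the group means (black bar). Serpina6 lies below 0 and Fkbp5 above 0 at every number, whereas Tsc22d3, Sgk1 and Per1 are below 0 at number 1 and above 0 at numbers 2 and 3.

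The receptor and its partners were read from a list of 24 genes, all tested, of which 1 fell, none rose and 23 did not pass (limma, Benjamini-Hochberg adjusted p under 0.05 over all 9968 tested genes). Over those 9968 genes 0.291% fell and 0.472% rose. Nr3c1, the receptor itself, stood at 9.98, 13.9 and 14.2 FPKM in knockout liver and 9.24, 12.6 and 13.6 in wild type, lowest in replicate 1 of each genotype (log2 difference 0.10, SE 0.18; limma, adjusted p = 0.93). The gene that fell was Hsp90aa1, the inducible HSP90, at 60.2, 58.9 and 64.3 FPKM in knockout liver and 95.8, 125 and 155 in wild type (log2 difference -0.996, SE 0.17; limma, adjusted p = 0.028). All knockout libraries were below all wild type libraries. Divided by role after the values were seen, the 12 HSP90 and HSP70 chaperones and co-chaperones all had negative differences, with a median of -0.38, and in 10 of the 12 the groups did not overlap, as in 15.4% of all tested genes. Among them were Hsp90ab1, the constitutive HSP90 (267 ± 22.5 FPKM in the knockout, 386 ± 49.0 in wild type; limma, adjusted p = 0.16), and Fkbp4, the co-chaperone that competes with the Fkbp5 product for the receptor (54.4 ± 7.50 and 69.0 ± 4.96; limma, adjusted p = 0.42). The 12 receptors and coregulators had a median of 0.03, with 9 positive and 3 negative. The Hsp90aa1 call did not hold when either of knockout replicates 2 and 3, either of wild type replicates 2 and 3, or the filter on low values was left out (limma, adjusted p = 0.082 to 0.15).

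Other textbook targets of the receptor numbered 46, of which 39 were tested. Of these 4 rose, beside 0.472% of all tested genes, none fell, beside 0.291%, and 35 did not pass. Their median log2 difference was 0.39 (all tested genes, -0.03), and 32 of 39 were positive. The 4 that rose were all listed as signalling and stress targets. Mt2, a metallothionein that binds zinc and copper, rose from 36.6, 18.7 and 21.6 FPKM in wild type to 198, 173 and 141 in the knockout (log2 difference 2.73, SE 0.23; limma, adjusted p = 3.2e-04). Its relative Mt1 rose from 143 ± 68.7 to 427 ± 118 FPKM (SD, n = 3 each; limma, adjusted p = 0.039). Metallothionein genes also answer to metals and oxidants, and the rise of Mt2 and of Cdkn1a in these libraries was known when the list was drawn up. The counts of called targets, here and under the other settings, include both genes. They therefore give no support to a rise of the targets as a set. Cdkn1a, the cell cycle inhibitor p21, rose from 3.67, 4.52 and 2.51 FPKM to 11.1, 18.7 and 17.7 (log2 difference 1.87, SE 0.23; limma, adjusted p = 0.0043). Gadd45b, a stress-induced gene, rose from 1.57 ± 0.30 to 4.73 ± 1.33 FPKM (SD, n = 3 each; limma, adjusted p = 0.037). Mt2 and Cdkn1a passed in all 12 alternatives, while Gadd45b and Mt1 each lost the call in 6 (limma, adjusted p = 0.071 to 0.19 and 0.071 to 0.18): both when any 1 of knockout replicates 2 and 3 and wild type replicates 2 and 3, or the filter on low values, was left out, Gadd45b also without wild type replicate 1, and Mt1 also after median centring.

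Of the metabolic targets, 17 of 18 were tested and none passed after adjustment (limma), with 8 at an unadjusted p under 0.05, a level that 990 of all 9968 genes reached. All 17 had positive differences, and their median was 0.43. Tdo2, the tryptophan dioxygenase, stood at 794 ± 103 FPKM in knockout liver and 642 ± 136 in wild type (SD, n = 3 each; limma, adjusted p = 0.59), with overlapping groups. Cps1, the entry enzyme of the urea cycle, stood at 677 ± 49.7 and 463 ± 85.9 FPKM (SD, n = 3 each; limma, adjusted p = 0.20), with every knockout library above every wild type library. Chosen after their values were seen, 3 other targets were, like Tat and Dusp1, much lower in knockout replicate 1 than in the other knockout libraries. Pck1, the gluconeogenic enzyme PEPCK, read 408, 953 and 1024 FPKM in knockout liver and 214, 333 and 308 in wild type. Igfbp1, a secreted binder of insulin-like growth factors, read 25.3, 108 and 117 FPKM and 10.8, 23.9 and 24.7. Gadd45g, a relative of Gadd45b, read 4.76, 52.3 and 64.0 FPKM and 7.96, 2.46 and 1.59. Knockout replicate 1 lay above every wild type library for Pck1 and Igfbp1, and among the wild type values for Gadd45g. Without it, 13 of the 39 targets rose and none fell (limma, adjusted p under 0.05), beside 2.12% of all tested genes called in either direction. Without replicate 1 of both genotypes 23 rose and 4 fell, beside 11.9% of all genes. With the replicate number as a block 6 rose, Pck1 and Igfbp1 joining the 4 (limma, adjusted p = 0.027 for each), beside 0.722% of all genes called.

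**Figure D4:**
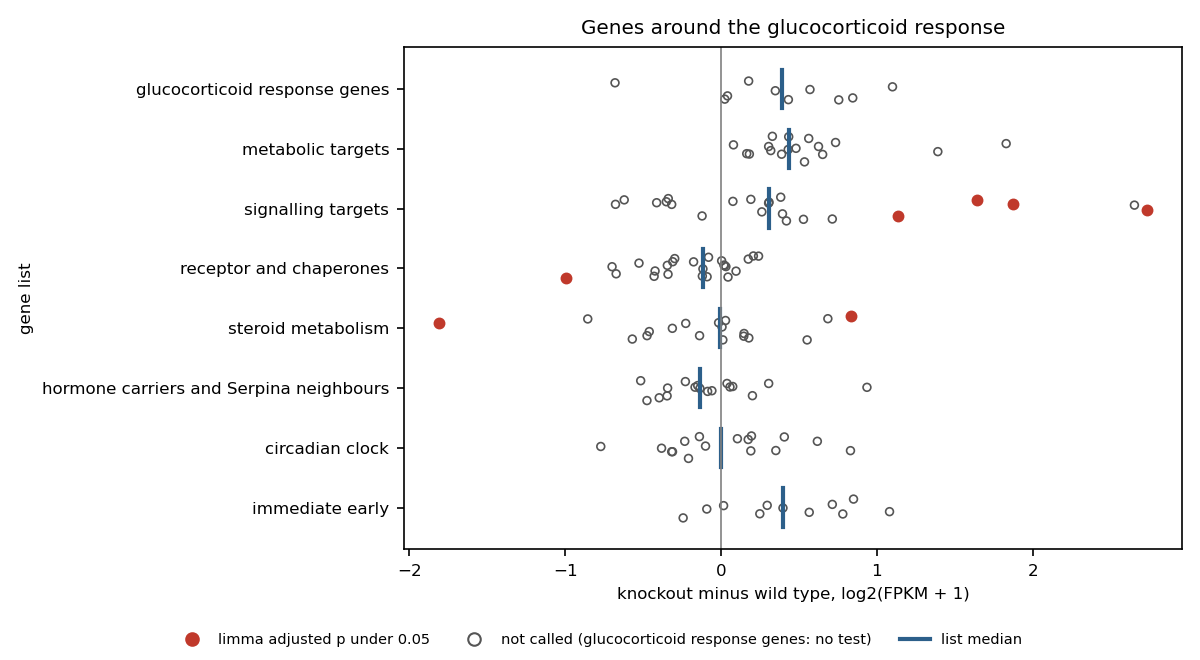
Log2 difference, knockout minus wild type on log2(FPKM + 1), of the 10 genes (top row, not tested) and of every tested gene in 7 gene lists (points, with random vertical offsets), with each row's median as a blue bar and a grey line at 0. Filled red points passed the limma test at an adjusted p under 0.05, and the 17 metabolic targets lie above 0 while none of them is filled.

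Other measures moved with knockout replicates 2 and 3, where Dusp1, Tat, Pck1 and Igfbp1 were highest. A list of 17 immediate early genes, which many stimuli switch on within minutes, summed to 64.7, 107 and 123 FPKM in knockout liver and 58.0 to 66.7 in wild type, with Fosb and Klf4 at 0 in some libraries. Of the 11 tested, 9 were positive with a median of 0.40, and none passed (limma), with 4 at an unadjusted p under 0.05 (990 of 9968 over all genes). Without knockout replicate 1, Egr1, Jun, Junb and Zfp36 passed (limma, adjusted p = 0.0125, 0.0184, 0.0441 and 0.00284), beside 2.12% of all tested genes called in either direction. That library was left out after its low values were seen. Zfp36, which encodes an RNA-destabilizing protein, read 9.34, 30.6 and 35.0 FPKM in knockout liver and 11.7, 15.1 and 12.1 in wild type (limma, adjusted p = 0.59). It followed Dusp1 in being low in knockout replicate 1 and high in the other knockout libraries. Jund, a JUN family member, was flatter at 21.0 ± 3.13 and 15.9 ± 4.09 FPKM (SD, n = 3 each; limma, adjusted p = 0.53). The 8 macrophage markers, all in the table, summed to 128, 86.0 and 66.6 FPKM in knockout liver and 124 to 140 in wild type. In the sum only knockout replicates 2 and 3 were low. Clec4f (38.05 FPKM) and Cd68 (5.0 FPKM) were below every wild type library in knockout replicate 1 too, and the other markers overlapped between genotypes. Groups without overlap, 2 of the 8 here, occurred in 15.4% of all tested genes. The 9 lymphocyte and neutrophil markers in the table summed to 18.0 and 21.6 FPKM in replicate 1 of the knockout and the wild type and to 4.79 to 7.13 in the other 4 libraries, and Cd3e, Cd3g, Cd8a, Cd79a and Ms4a1 were at 0 in some libraries. The 4 red cell markers in the table summed to 196 to 393 FPKM in knockout liver and 232 to 536 in wild type, highest in replicate 1 of each genotype. Among them Alas2, the heme synthesis enzyme of red cell precursors, fell from 47.9 ± 3.30 to 9.43 ± 0.86 FPKM (SD, n = 3 each; limma, adjusted p = 2e-05), beside 0.291% of all tested genes that fell. Hba-a1 and Hba-a2, named after their values were seen, overlapped between genotypes (log2 difference 0.08 and -0.13; limma, adjusted p = 0.98 and 0.95). Hbb-bt did not pass the filter on low values. Endothelial markers (7 of 7 in the table, 75.8 to 111 FPKM in knockout liver and 83.0 to 106 in wild type) and stellate markers (8 of 8, 128 to 151 and 130 to 168) overlapped between genotypes. Cholangiocyte markers (5 of 5, with Krt7 at 0 somewhere) summed to 18.9 to 21.7 FPKM in knockout liver and 25.4 to 32.4 in wild type. Nearly all of that sum was Spp1, and the other markers were each below 1 FPKM. Of these Krt7, Epcam and Sox9 had higher means in the knockout, and Krt19 had a lower one (0.28 against 0.52 in wild type). Adrenal and pancreas markers (2 of 7 in the table) summed to 21.7 to 33.8 and 25.5 to 44.6 FPKM. Nearly all of that sum was Cela1, while Star had means of 0.41 FPKM in knockout liver and 0.36 in wild type. The part of immediate early genes, macrophages, blood cells or bile duct cells in the differences of the 10 genes was not tested.

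The clock list bears on Per1, since glucocorticoids and the clock share it. Of 18 clock genes 16 were tested, 8 positive and 8 negative with a median of 0.003, and none passed (limma), with 3 at an unadjusted p under 0.05 (990 of 9968 over all genes). In 4 of the 16 the groups did not overlap, beside 15.4% of all tested genes. They were Dbp and Per3, lower in the knockout, and Arntl and Nfil3, higher in it. Per3 and Nfil3 were named after their values were seen. A median near 0 does not show that single clock genes were unchanged. Dbp, a transcription factor driven by the clock, read 26.2, 29.4 and 31.6 FPKM in knockout liver and 71.9, 44.8 and 39.2 in wild type, below in every knockout library (log2 difference -0.77, SE 0.20; limma, adjusted p = 0.17). Per2, the paralog of Per1, had a log2 difference of -0.32 (SE 0.18; limma, adjusted p = 0.62), opposite in sign to Per1. Arntl, the clock activator BMAL1, named after its values were seen, read 1.10, 1.81 and 1.04 FPKM in knockout liver and 0.37, 0.28 and 0.22 in wild type (log2 difference 0.83, SE 0.17; limma, adjusted p = 0.077). Arntl passed the filter on low values through its knockout libraries alone, as every wild type value was below 1 FPKM, so its test gives no support. Sampling time is not given in the labels, so its part in Per1, Dbp and Arntl was not tested.

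Genes that share the hormone's handling with Hsd11b1 split evenly in direction. Of 23 steroid enzymes and related genes 18 were tested, 9 positive and 9 negative with a median of -0.004. Of the 18, 1 rose, beside 0.472% of all tested genes, 1 fell, beside 0.291%, and 16 did not pass. An unadjusted p under 0.05 (limma) was reached by 8 of the 18 and by 990 of 9968 over all genes. In 8 of the 18 the groups did not overlap, as in 15.4% of all tested genes. Hsd3b3 rose from 51.4 ± 4.03 to 92.6 ± 13.1 FPKM (SD, n = 3 each; log2 difference 0.83, SE 0.14; limma, adjusted p = 0.026). Hsd3b5 fell, at 11.4, 29.6 and 32.0 FPKM in knockout liver and 68.4, 83.8 and 90.0 in wild type (log2 difference -1.81, SE 0.32; limma, adjusted p = 0.037). Both encode enzymes of the 3-beta-hydroxysteroid dehydrogenase family. Whether reads were divided between members of this family was not checked, so neither value is certain. The calls were lost in 5 alternatives each, without knockout replicate 2, wild type replicate 2 or 3 or the filter on low values, for Hsd3b3 also without knockout replicate 3 and for Hsd3b5 also without wild type replicate 1 (limma, adjusted p = 0.074 to 0.15 and 0.057 to 0.17). H6pd, which supplies the cofactor to Hsd11b1, differed by 0.03 (SE 0.19; limma, adjusted p = 0.99). Hsd11b2, Srd5a2 and Cyp11b1 have no row in the table.

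Serpina6 lies in a cluster of serpin genes, and these were read together with the other blood carriers of hormones. Of 22 such genes 17 were tested, none passed (limma), 5 had an unadjusted p under 0.05 (990 of 9968 over all genes), and 11 of 17 differences were negative with a median of -0.14. Serpina1a, which encodes an alpha-1-antitrypsin, was at 5648 ± 135 FPKM in knockout liver and 5993 ± 45.8 in wild type (SD, n = 3 each; log2 difference -0.09, SE 0.13; limma, adjusted p = 0.92), and as one of several near-identical copies its value is uncertain. Gc, the vitamin D carrier, named after its values were seen, differed by -0.23 (SE 0.14; limma, adjusted p = 0.66). Ttr, the thyroid hormone and retinol carrier, named likewise, differed by -0.17 (SE 0.15; limma, adjusted p = 0.80). Serpina7, which encodes thyroxine-binding globulin, Serpina10 and Serpina3k, named in the same way, differed by -0.47, -0.52 and -0.40 (limma, adjusted p = 0.44, 0.12 and 0.45). Serpina1e, another of the near-identical copies, differed by 0.94 (limma, adjusted p = 0.085) and passed without knockout replicate 1 (adjusted p = 0.0014). Alb, also a carrier of steroids, was at 30269 ± 3205 and 26283 ± 2215 FPKM (SD, n = 3 each; limma, adjusted p = 0.79), with the knockout mean higher. Whether Serpina6 differed more than these carriers was not tested.

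The genes nearest to Fkbp5 and Serpina6 in their course over the 6 libraries were found by the root mean square difference of log2(FPKM + 1) centred on each gene's mean. Only tested genes with a regular name were ranked. Those without a symbol or with a provisional one (LOC, Gm with a number, or Rik) were left out. For Fkbp5 they were Hapln4 (0.084), Vps37b (0.11), Mup8 (0.12) and Fam134b (0.13). Hapln4, a link protein of the extracellular matrix, stood at 1.14 ± 0.12 FPKM in knockout liver and 0.26 ± 0.13 in wild type (SD, n = 3 each). It passed the filter on low values through the knockout libraries alone. Vps37b, a subunit of the ESCRT-I sorting complex, stood at 6.80 ± 0.70 and 3.83 ± 0.17 FPKM. Mup8 belongs to the major urinary proteins, a family of near-identical copies in which reads can be divided, and its 61.4 ± 11.2 and 32.5 ± 0.63 FPKM are uncertain. Fam134b, a receptor for the autophagy of endoplasmic reticulum, stood at 37.8 ± 4.36 and 21.4 ± 1.41 FPKM. For Serpina6 the nearest were Sept4 (0.096), Cpne8 (0.11), Nudt7 (0.11) and Oxct1 (0.11). Sept4, a septin, stood at 4.83 ± 0.83 FPKM in knockout liver and 7.41 ± 0.39 in wild type, and Cpne8, a copine, at 1.90 ± 0.53 and 3.69 ± 0.16. Nudt7, a peroxisomal coenzyme A hydrolase, was the most abundant of these at 152 ± 19.3 and 271 ± 3.23 FPKM. Oxct1, an enzyme of ketone body use, stood at 1.02 ± 0.14 and 1.96 ± 0.18 FPKM. The measure includes the genotype difference for which Fkbp5 and Serpina6 were chosen, and it carries no test.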

How the data were processed

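RNA of mouse liver was sequenced in 6 libraries, and 1 table of FPKM values per gene was used, as deposited by the authors with its unit per the file headers. Per the submitters' processing notes, HISAT and mm10 were used; no source used here names the quantifier. Groups came from the sample labels. The 10 genes, the gene lists and the tests were chosen with earlier results of these data known.

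Genes at 1 FPKM or more in at least 3 of 6 libraries (9968) entered limma 3.58.1 (R 4.3.3), a linear model with an intensity trend on log2(FPKM + 1), with Benjamini-Hochberg adjustment over all of them and a threshold of 0.05. Fold changes on this scale understate those of low genes. FPKM carry no read counts, so depth was only estimated from the steps of low values. Nothing says that libraries were separate animals, so p-values reflect only how these samples vary, which may be technical.

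The replicate numbers in the sample titles (1 to 3 in each genotype) were checked for pairing: the deviations from the group means correlated by 0.30, 0.20 and 0.16 for numbers 1, 2 and 3, all above 0.1, and the numbers were treated as pairs in an alternative fit with a replicate block. Knockout replicate 3 correlated with wild type replicate 2 by 0.21, above the values of the matched numbers 2 and 3. The check therefore does not show that libraries of 1 number were paired, and the labels give only the numbers. Named genes were the 10, Cyp2e1, up to 4 called genes per list or else the 2 of highest mean FPKM, and the 4 nearest in course to Fkbp5 and to Serpina6; others are marked as chosen later, and some items the rule names are not reported here. Alternatives were a pseudocount of 0.1, no filter, rescaling to TPM, centring on the median, the block, each library left out, and replicate 1 of both left out.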

Additional observations from a re-analysis of the deposited data

How the results depend on the processing

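The count of genes past the threshold was 76 over all genes, 4 among the 39 receptor targets and 3 among the 86 tested entries of the other lists, which also hold the targets Per2 and Zfp36. Without the filter on low values they were 32, 2 and 0. Leaving out 1 library gave 29 to 211 genes, 2 to 13 targets and 0 to 10 of the other lists, the highest counts without knockout replicate 1 (where Zfp36 counts in both) and the lowest without knockout replicate 2. Without replicate 1 of both genotypes they were 1183, 27 and 37. The cause of these changes was not tested. The fit with the replicate block gave 72 genes, 6 targets and 4 of the other lists, adding Pck1, Igfbp1 and Hsd3b2; Hsd3b2 fell by 0.85 on the log2 scale (limma, adjusted p = 0.040), and the block changed no other call among the listed genes. Over 12 alternatives the 10 genes had 120 values, of which 118 moved by less than the spread between replicates; Serpina6 at -0.53 and Hsd11b1 at 0.13 moved further without replicate 1 of both genotypes. Tsc22d3, Sgk1, Zbtb16 and Hsd11b1, whose groups overlapped, changed sign under some alternatives. Depth limits the low genes most: the lowest Zbtb16 value carried a counting error near 13.9% by the depth estimate.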
